A study of Mus musculus with 32 samples.

Results

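The last exon of an mRNA usually carries the stop codon and most of the 3′ untranslated region, and here the last exons that span 3000 bases or more were examined. They were chosen by length and position alone. Within each gene of the deposited exon-bin tables, bins that touch each other were joined into blocks, and in genes with 3 or more blocks the last block in the direction of transcription was taken where it spanned at least 3000 bases. This gave 2372 long last exons out of 20380 last exons (11.6%), in tables that list 354841 bins of 37223 genes. The median length was 3914.5 bases (quartiles 3391.5 and 4886), against 952 bases over all last exons. A length of 5000 bases or more was reached by 545 of them, 22 reached 10000 bases or more, and the longest spanned 24280 bases. At the boundary, the shortest last exon inside was 3000 bases (ENSMUSG00000097441) and the longest outside was 2999 bases (Grid1).

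P19 cells, a mouse embryonal carcinoma line that resembles pluripotent stem cells, were transfected for 36 h with Lipofectamine 2000 and esiRNAs (enzymatically prepared pools of short interfering RNAs) against 1 of the 7 SR proteins SRSF1, SRSF2, SRSF3, SRSF4, SRSF5, SRSF6 or SRSF7, or with an esiRNA against GFP as the mock control. Poly(A)+ RNA was sequenced from whole cell lysate and from the cytoplasmic fraction, with 2 libraries (A and B) per knockdown and fraction, 32 libraries in all. The study asked whether single SR proteins act in mRNA export and in the choice of 3′ ends. The paper describes biological replicates, but no label says that A and B were separate cultures. The p-values therefore measure only the spread between these libraries, and all 7 comparisons of a fraction share the same 2 GFP libraries.

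SR proteins are RNA-binding proteins with a domain rich in arginine and serine that bind exons, regulate splicing and can recruit the export receptor NXF1. Many genes can end their mRNA at more than one polyadenylation site in the last exon. A proximal site gives a short 3′ untranslated region and a distal site a long one, and the sequence in between can hold binding sites for microRNAs and RNA-binding proteins. Cleavage usually takes place a short distance after a hexamer such as AATAAA or ATTAAA.

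The annotated 3′ ends of 6 of the genes described further on are printed to show where a proximal and a distal end can lie in the same last exon. They were picked among genes with both ends annotated, and Gtf2a1, Helz, Ankrd50 and Eif4g2 are among the largest changes named. Ccnt1, Zdhhc21 and Slc45a4, also with both ends annotated, held neither hexamer in the final 30 bases of the proximal end. Each line is the final 30 bases of an annotated transcript (the Gencode M1 annotation, build mm9), read 5′ to 3′ on the strand of the gene, and capitals mark the hexamer AATAAA or ATTAAA. Gtf2a1, Helz, Ankrd50 and Gsk3b lost distal reads in SRSF3 knockdown, Eif4g2 gained them, and Glrx2 gained them in SRSF7 knockdown, as given further on.
Gtf2a1 proximal end (1164 bases into the last exon of 3936 bases, chr12:92797128-92797157, minus strand): tttaaaattattttaATTAAAcaaaatttt
Gtf2a1 distal end (chr12:92794356-92794385, minus strand): ttgcaaaaactttaATTAAAgatgttattt
Helz proximal end (559 bases into the last exon of 7442 bases, chr11:107548228-107548257, plus strand): ttatgtagAATAAAaatatttttaaatttg
Helz distal end (chr11:107555111-107555140, plus strand): atttatAATAAAaaaatgcctttttaataa
Ankrd50 proximal end (427 bases into the last exon of 3245 bases, chr3:38351001-38351030, minus strand): tgttactcAATAAAgcaattcttgcaactg
Ankrd50 distal end (chr3:38348183-38348212, minus strand): ttctaAATAAAagtgtgctcctcctttggt
Gsk3b proximal end (278 bases into the last exon of 5583 bases, chr16:38240836-38240865, plus strand): tctatataaatacaaaccagtttcattgta
Gsk3b distal end (chr16:38246141-38246170, plus strand): ttcAATAAAgacaaatttatattggactca
Eif4g2 proximal end (826 bases into the last exon of 4773 bases, chr7:118215446-118215475, minus strand): gtatctatcAATAAAcattgtgatacttga
Eif4g2 distal end (chr7:118211499-118211528, minus strand): ccataagccaaAATAAActcttgaacattg
Glrx2 proximal end (269 bases into the last exon of 3169 bases, chr1:145593877-145593906, plus strand): aatgaacAATAAAttgccctggacccttca
Glrx2 distal end (chr1:145596777-145596806, plus strand): aaaagaAATAAActcttccaatgattgctt
Of these ends, the proximal one of Gsk3b held neither hexamer in its final 30 bases. Among long last exons of equal annotated length in both builds, 1611 of 2118 distal ends (76.1%) held either hexamer on the sense strand there. For proximal ends, only the annotated end nearest the start of each last exon and not beyond its midpoint was taken. Of these, 127 of 657 (19.3%) held a hexamer. Among coding transcripts with an annotated 3′ untranslated region, 25017 of 43420 (57.6%) did. A match here is a description of the letters and not a measured cleavage site.

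Each library held between 41417374 and 72741730 reads in bins in the cytoplasm (median 53382958) and between 38874542 and 59470730 in the whole cell (median 44557182). Long last exons took 3.62% to 4.24% of the cytoplasmic reads and 5.25% to 6.33% of the whole-cell reads. The mRNA of the targeted gene fell to between 47.5% (Srsf7) and 63.7% (Srsf3) of its GFP level in the whole cell. In the cytoplasm it fell to between 35.8% (Srsf4) and 72.7% (Srsf2). The stem cell markers Pou5f1, Sox2, Utf1, Dppa4, Lin28a and Dnmt3b were read in every library. Malat1, a nuclear RNA, stood at 181.5 to 413 RPM (reads scaled to a common depth per library) in the whole-cell libraries other than SRSF3 and at 0.876 to 6.51 in the cytoplasmic ones. In SRSF3 knockdown it stood at 11.6 (library A) and 1.37 (library B) RPM in the cytoplasm. Library A held more of it than library B in all 8 cytoplasmic groups, with 6.23 and 1.78 RPM in the GFP libraries, and the nuclear RNAs Neat1 (2.52 RPM) and Meg3 (40.0 RPM) were also highest in SRSF3 library A. These RNAs were looked at after values were seen, and their part in the results was not tested. Without that library, 165 long last exons were called for SRSF3 in the cytoplasm, against 242 with it and 118 without GFP library B, by the test described next.

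A pair of measures was taken for each last exon in each library. The first is the log2 ratio of reads in distal bins to reads in proximal bins of the same last exon, with a bin assigned by whether its midpoint lies beyond the midpoint of the exon. The distal share is the same quantity as a percentage of all last-exon reads. The second measure is the log2 ratio of all last-exon reads to the reads of all upstream exons of the gene. Both are ratios within a gene, so the total level of the gene cancels, and fewer cells and less RNA per cell cannot be told apart in bulk libraries. A bin map limits the first measure. A single bin makes up 989 of the 2372 long last exons, 484 hold 2 bins and 899 hold more, 1258 had both parts at least 100 bases long, and 1030 also had a mean of at least 10 reads in each part in some fraction (1025 in the whole cell and 857 in the cytoplasm). Proximal parts had a median of 1382.5 bases and distal parts a median of 2803 bases in these 1030. For the second measure 1965 could be tested in some fraction, and 8 of the 2372 had no read in any library. The last exons that were tested had to hold reads in both parts, so no count below is a count over all long last exons.

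In GFP control cells, reads per base were lower in the distal part of most long last exons. The median distal density was 0.609 of the proximal density in whole-cell RNA (quartiles 0.303 and 0.912, 1025 last exons), and 202 had a denser distal part. In the cytoplasm the median was 0.807 (quartiles 0.227 and 1.57, 857 last exons), and 372 had a denser distal part. Shorter last exons had medians of 0.540 and 0.652.

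SRSF3 knockdown moved cytoplasmic reads of long last exons from distal to proximal bins. The median log2 ratio per library was 0.62 and 0.58 in the GFP libraries and 0.04 and 0.00 in the SRSF3 libraries, and no other cytoplasmic library fell below 0.24. In the limma test, 242 of 857 long last exons passed at an adjusted p below 0.05, 237 of them lower and 5 higher, which is 28.2%, against 12.2% of all 3642 last exons tested (11.8% lower and 0.412% higher). The median change was −0.54 on the log2 scale, against −0.17 over all last exons tested. After each library was centred on its own median over all last exons, 140 were called, 126 lower and 14 higher. In 577 of the 857 both SRSF3 libraries lay below both GFP libraries, in 34 both lay above, and in 246 the groups overlapped (67.3% below and 3.97% above, against 44.3% and 9.64% of all last exons tested). Leaving out GFP library B left 118 calls, SRSF3 library B 146 and GFP library A 155.

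**Figure D1:**
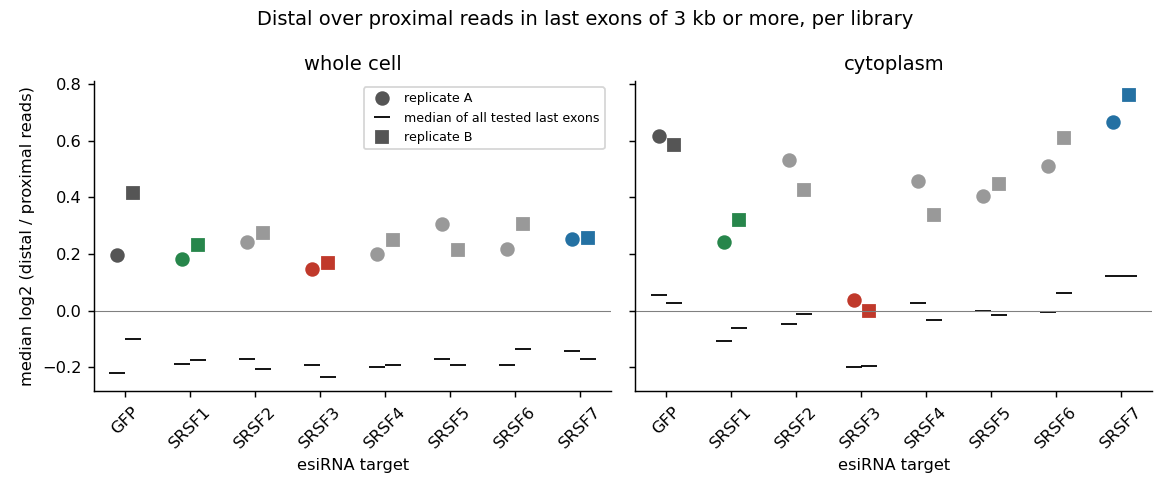
Median log2 ratio of distal to proximal reads over the tested long last exons (857 in the cytoplasm, 1025 in the whole cell) in each library, by esiRNA target (x axis), with dashes for the median over all tested last exons. The 2 SRSF3 libraries at 0.04 and 0.00 are the lowest of the 16 cytoplasmic libraries, while whole-cell libraries other than GFP B lie between 0.15 and 0.31.

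Gtf2a1, which encodes a subunit of the general transcription factor TFIIA, had the largest decrease by the naming rule. Its last exon is at chr12:91555916-91559851 (mm10, minus strand) and has 2 bins, of 1164 and 2772 bases, whose border is the annotated proximal end printed above. Distal bins held 80.4% and 84.9% of the last-exon reads in the GFP libraries and 36.9% and 45.4% in the SRSF3 libraries. The 12 libraries of the other 6 knockdowns held 74.5% to 86.1%, so only the SRSF3 libraries stood apart. The log2 change was −2.77 ± 0.31 (SE, n = 2 against 2, limma adjusted p = 5.57e-05). In reads, the proximal bin held 72 and 58 with GFP and 356 and 263 with SRSF3 knockdown, while the distal bin held 295 and 327, then 208 and 219.

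Aff4 and Ccnt1, which encode a scaffold of the super elongation complex and cyclin T1 of the elongation factor P-TEFb, followed in size. For Aff4 (chr11:53415388-53421830, mm10, plus strand) the distal share was 94.4% and 93.6% with GFP and 73.3% and 77.7% with SRSF3 knockdown (log2 change −2.33 ± 0.20, adjusted p = 4.59e-06). For Ccnt1 (chr15:98538689-98544608, mm10, minus strand) it was 92.5% and 92.8% with GFP and 63.8% and 77.4% with SRSF3 knockdown (−2.32 ± 0.41, adjusted p = 0.00164). The naming rule required groups that did not overlap. The other knockdowns lay at 90.1% to 95.0% for Aff4 and at 80.5% to 92.7% for Ccnt1. Zdhhc21, a palmitoyltransferase gene, went from 60.9% and 66.1% to 29.6% and 22.1% (−2.31 ± 0.36, adjusted p = 0.000693). Here 1 library of the other knockdowns reached down to 27.0%, inside the range of the SRSF3 libraries.

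The 5 long last exons that rose in the cytoplasm changed less. Ccdc127, whose last exon spans 9328 bases in 9 bins (chr13:74356456-74365783, mm10, plus strand), had distal shares of 15.1% and 19.8% with GFP and 32.6% and 35.9% with SRSF3 knockdown (+1.31 ± 0.32, adjusted p = 0.0125). Its read density rose in 3 bins between 4149 and 6246 bases into the exon, and when only its first and last bins were set against each other the change was −0.55. Rhbdd2, a rhomboid domain gene, went from 16.7% and 13.6% to 25.7% and 21.0% (+0.77 ± 0.20, adjusted p = 0.0176). The lower SRSF3 value of Rhbdd2 lay inside the range of the other knockdowns (10.3% to 22.4%). Med22, a subunit gene of the Mediator complex, went from 45% and 44.4% to 54.1% and 52.9% (+0.51 ± 0.12, adjusted p = 0.00988). The model of Hnrnpa3, an RNA-binding protein gene, is shared with another annotated gene, and its change was +0.75 ± 0.18 (adjusted p = 0.0133).

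**Figure D2:**
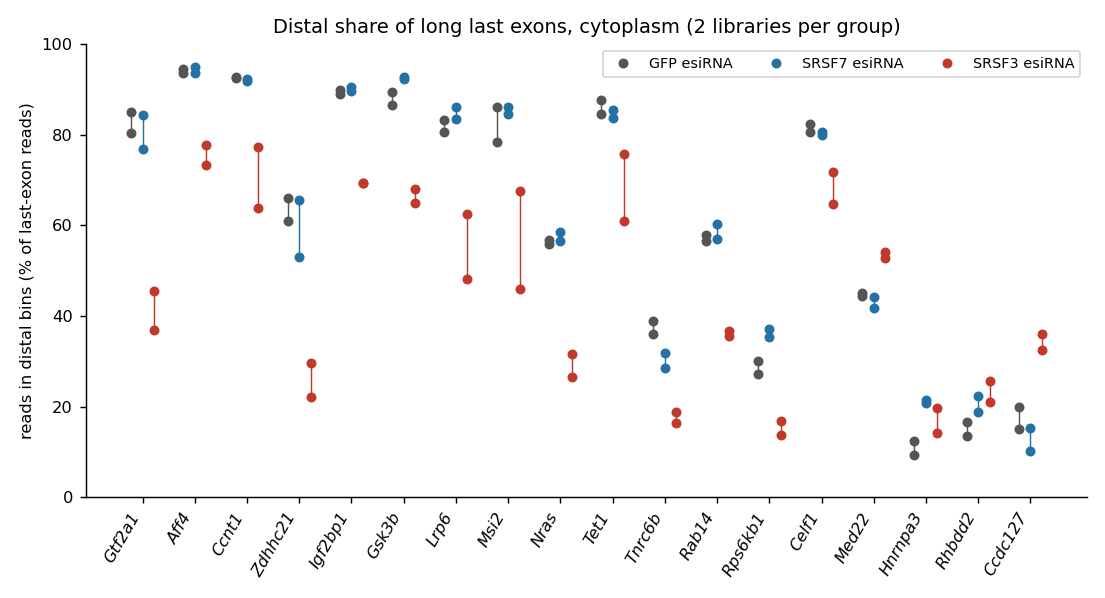
Reads in distal bins as a percentage of last-exon reads in the cytoplasm, for the long last exons named for SRSF3 (x axis, ordered by log2 change), with 1 point per library for the GFP, SRSF7 and SRSF3 esiRNAs joined by a line within a group. SRSF3 points lie below the GFP points from Gtf2a1 (36.9% and 45.4% against 80.4% and 84.9%) to Celf1, and above them for Med22, Hnrnpa3, Rhbdd2 and Ccdc127.

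The parts of the last exon moved in opposite directions when each was scaled to library depth. Over the 237 that fell in SRSF3 knockdown cytoplasm, proximal RPM rose by a median of 0.68 on the log2 scale (quartiles 0.34 and 1.06, above 0 in 215). Distal RPM fell by a median of 0.42 (below 0 in 208), and the upstream exons of the same genes rose by a median of 0.93 (above 0 in 226). Over all 857 tested, the medians were +0.19 for proximal, −0.32 for distal and +0.43 for upstream reads. These 237 were chosen by the ratio itself, so their medians describe which part moved and are not a test.

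**Figure D3:**
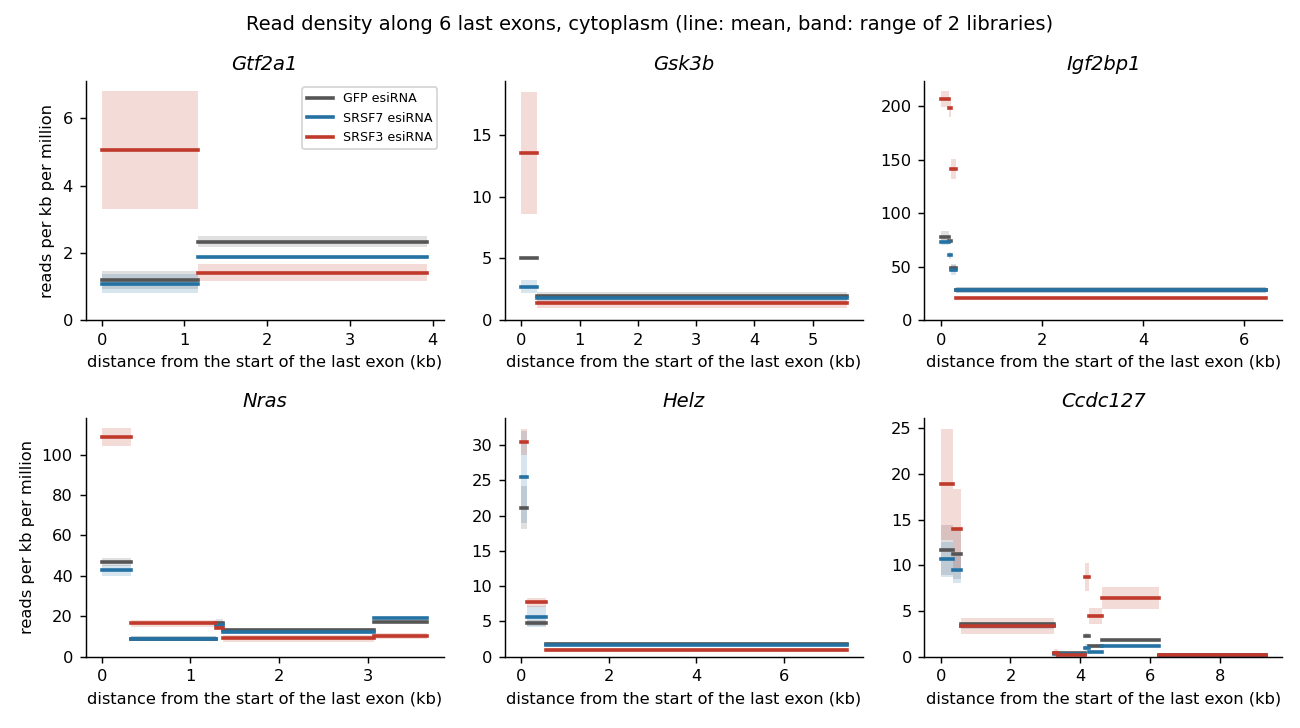
Read density (RPKM, RPM divided by the bin length in kb) in each bin along 6 long last exons in the cytoplasm (x axis, distance from the start of the last exon in kb), with the mean of 2 libraries as a line and their range as a band for the GFP, SRSF7 and SRSF3 esiRNAs. In Nras the first 327 bases rose from 48.9 and 44.7 with GFP to 112.9 and 104.3 with SRSF3 knockdown, while the bin that starts 3069 bases in fell from 18.1 and 16.6 to 11.8 and 8.90.

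Coverage along the upstream exons, which RNA quality can tilt, was compared as well. The log2 ratio of reads in the 3′ part to those in the 5′ part of the upstream exons was taken over 851 genes with long last exons. Its median was 0.81 and 0.86 in the cytoplasmic SRSF3 libraries, below both GFP libraries (0.95 and 0.98). The SRSF1 libraries stood at 0.84 and 0.88, and the 14 libraries other than SRSF3 ranged from 0.84 to 1.07. Whether this tilt plays a part in the distal change was not tested. Among 431 tested genes with such a ratio, 221 had a ratio that changed by at most 0.2, and 67 of these (30.3%) were called lower in distal over proximal reads. In the 171 whose ratio fell by more than 0.2 the share was 25.7%, and in the 39 whose ratio rose by more it was 28.2%. The remaining tested last exons had no such ratio. Annotated splicing inside the last block was also set apart. Of 679 last exons with no transcript spliced within the block, 197 (29.0%) fell, and of 178 with one, 40 (22.5%) fell. In models shared by overlapping genes 15 of 55 fell, and the sources used here do not say whether reads were counted by strand, so overlapping and antisense genes remain uncertain.

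Whole-cell RNA showed the change in fewer last exons and at a smaller size. In SRSF3 knockdown, 166 of 1025 long last exons were called (16.2%), 150 lower and 16 higher, against 8.64% of 3958 last exons (7.43% lower and 1.21% higher). The median change was −0.14, against −0.04 over all. The GFP libraries themselves differed, with medians of 0.20 (A) and 0.42 (B), and all other whole-cell libraries lay between 0.15 and 0.31. Leaving out GFP library B left 72 calls, and leaving out SRSF3 library A left 66. Over the 150 that fell, distal RPM fell by a median of 0.65 (below 0 in 142), while proximal reads changed by +0.10 and upstream reads by +0.11.

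The largest whole-cell decreases were seen in Slc45a4, Lins, Helz and Ankrd50. Helz, an RNA helicase gene with a last exon at chr11:107686385-107693826 (mm10, plus strand), had distal shares of 82.2% and 84.5% with GFP and 61.4% and 67.8% with SRSF3 knockdown (−1.45 ± 0.15, adjusted p = 1.38e-05). Ankrd50, which acts in endosomal recycling (chr3:38449261-38452505, mm10, minus strand), went from 78.3% and 82.0% to 56.3% and 63.1% (−1.44 ± 0.16, adjusted p = 2.45e-05). In both genes the SRSF3 libraries lay below all 14 others, since the other knockdowns stood at 73.2% to 83.3% for Helz and at 75% to 79.7% for Ankrd50. Lins went from 47.0% in each GFP library to 22.3% and 26.1% (−1.47 ± 0.14, adjusted p = 7.36e-06), and Slc45a4, a solute carrier gene, from 13.1% and 16.1% to 5.58% and 5.71% (−1.48 ± 0.28, adjusted p = 0.0019).

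Increases were led by Eif4g2, whose product acts in translation initiation, in a gene model shared with another annotation. Its last block (chr7:111067985-111072757, mm10, minus strand) is mostly read in the proximal part. The distal share was 0.650% and 0.678% with GFP and 6.20% and 3.18% with SRSF3 knockdown (+2.77 ± 0.30, adjusted p = 1.92e-05), and the other knockdowns lay between 0.339% and 1.35%. Tbp, the TATA-binding protein gene, rose from 23.2% and 19.4% to 46.9% and 36.5% (+1.40 ± 0.19, adjusted p = 9.03e-05). Krba1 changed by +1.42 ± 0.27 (adjusted p = 0.00212) and Ciapin1, an iron-sulfur assembly gene, by +1.48 ± 0.33 (adjusted p = 0.00563).

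Most last exons that fell in the cytoplasm were not called in the whole cell. Of 852 tested in both fractions, 145 fell in the whole cell and 237 in the cytoplasm, and 86 fell in both, which is 59.3% of the first list and 36.3% of the second. A difference between fractions was tested as an interaction over all 32 libraries. For SRSF3, 50 of the 852 changed differently, all 50 more negative in the cytoplasm, against 1.75% of 3545 last exons of any length, and the median difference was −0.38, against −0.15 over all. For the other 6 knockdowns the interaction called 0 (limma), with 77 (SRSF1), 41 (SRSF2), 28 (SRSF4), 28 (SRSF5), 12 (SRSF6) and 43 (SRSF7) at an unadjusted p below 0.05. Centring left 15 of the 50, and leaving out GFP whole-cell library A left 7, SRSF3 whole-cell library B 15, GFP cytoplasmic library B 20 and SRSF3 whole-cell library A 24.

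Aff4 showed such a difference most clearly, with −0.32 in the whole cell and −2.33 in the cytoplasm (difference −2.02 ± 0.20, adjusted p = 2.48e-06). Ccnt1 changed by −0.06 in the whole cell and by −2.32 in the cytoplasm (difference −2.26 ± 0.46, adjusted p = 0.0128). Nr2c2, an orphan nuclear receptor gene, changed by +0.02 in the whole cell and −2.03 in the cytoplasm (difference −2.05 ± 0.32, adjusted p = 0.00123). The largest difference was in Mdga1, a cell surface glycoprotein gene, at −3.10 ± 0.78 (adjusted p = 0.0396), which had risen by 1.95 in the whole cell, and which did not pass after centring (−2.91, adjusted p = 0.0976).

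**Figure D4:**
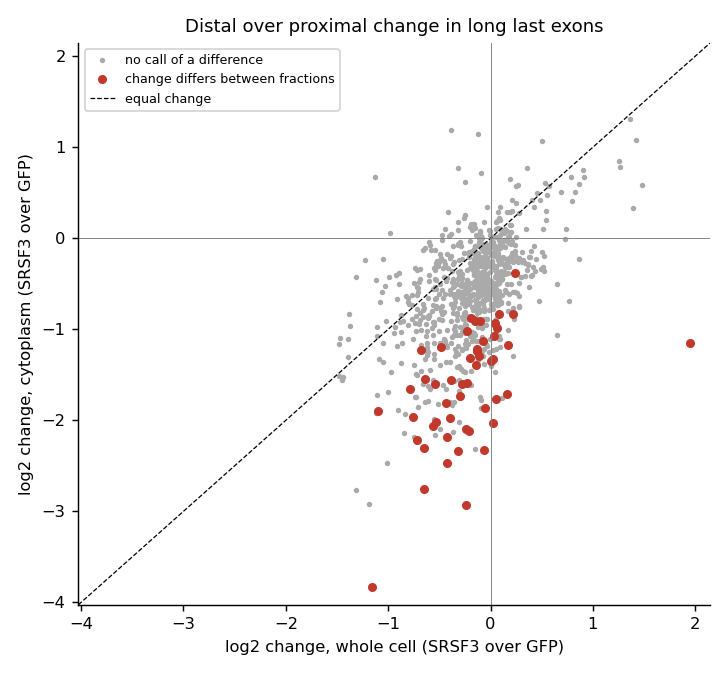
Log2 change of distal over proximal reads in SRSF3 knockdown against GFP in the whole cell (x axis) and the cytoplasm (y axis) for 852 long last exons, with a dashed line at equal change. Filled red points are the 50 whose change differed between fractions, and all of them lie below the line.

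SRSF3 and SRSF7 have closely related RNA-recognition motifs and were compared directly, with no GFP library in the contrast. In the cytoplasm 384 of 857 long last exons differed (44.8%), 379 lower and 5 higher in SRSF3 than in SRSF7 knockdown, against 22% of all last exons. The library medians were 0.04 and 0.00 with SRSF3 knockdown and 0.67 and 0.76 with SRSF7 knockdown, the lowest and the highest of the fraction, and the median difference was −0.70, against −0.26 over all. Centring left 210 calls, 192 lower and 18 higher, and leaving out SRSF7 library B left 202. Nr2c2 had distal shares of 72.0% and 67.1% in SRSF3 and 93.5% and 94.7% in SRSF7 knockdown (−2.76 ± 0.31, adjusted p = 2e-05). Gsk3b, a kinase gene of the Wnt pathway (chr16:38240502-38246084, mm10, plus strand), had 64.9% and 67.9%, then 92.4% and 92.8% (−2.63 ± 0.21, adjusted p = 1.12e-06), with 89.5% and 86.5% in the GFP libraries between them. Samd8, a sphingolipid synthesis gene, went from 89.1% and 90.2% with SRSF7 to 60% and 58.6% with SRSF3 knockdown (−2.54 ± 0.26, adjusted p = 8.83e-06). In the other direction stood Ccdc127 (+1.84, and −0.02 between its first and last bins), Slc43a2 (+0.88), Med22 (+0.61) and Med1 (+0.48).

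In the whole cell 221 of 1025 differed between SRSF3 and SRSF7 knockdown (21.6%), 198 lower and 23 higher, against 13.3%. Leaving out SRSF3 library A left 112 and SRSF7 library B 135. Commd2, a COMM domain gene (chr3:57642904-57646876, mm10, minus strand), had distal shares of 4.38% and 6.95% in SRSF3 and 17.7% and 16.5% in SRSF7 knockdown (−1.79 ± 0.25, adjusted p = 3.92e-05). Pdcd6ip, which encodes the ESCRT partner ALIX, had 25.3% and 31.0%, then 53.1% and 59.3% (−1.71 ± 0.16, adjusted p = 1.1e-06). Tsr2 and Tmcc1 differed by −1.70 and −1.63. The differences above 0 were led by Eif4g2 (+3.37), Ccdc127 (+1.67), Ap3m1 (+1.24) and Meg3 (+1.12), a long non-coding RNA in a shared model.

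Against GFP, SRSF7 knockdown itself changed few long last exons. In the whole cell 10 of 1025 were called (0.976%), all 10 higher, against 0.783% of all last exons, so their share was near that background. Commd2 rose from 6.55% and 7.80% to 17.7% and 16.5% (+1.40 ± 0.25, adjusted p = 0.00698). Glrx2, a mitochondrial glutaredoxin gene, rose from 21.4% and 21.0% to 34.9% and 33.4% (+0.94 ± 0.17, adjusted p = 0.0079). Taf10, a TFIID subunit gene, rose from 13.5% in each GFP library to 23.9% and 22.3% (+0.94 ± 0.14, adjusted p = 0.00106), and Krba1 changed by +1.30 ± 0.27 (adjusted p = 0.0243). As the naming rule required, the values of Commd2, Glrx2 and Taf10 did not overlap between the groups. Leaving out SRSF7 library A left 0 calls (limma), and leaving out GFP library A left 1. In the cytoplasm 1 of 857 was called, against 0.165% of all last exons, namely the shared Hnrnpa3 model (+1.14 ± 0.18, adjusted p = 0.0198, and 0.0559 after centring), and the median change was +0.13, against +0.10 over all. In 300 of 857 both SRSF7 libraries lay above both GFP libraries, in 67 both lay below and in 490 the groups overlapped (35.0% above and 7.82% below, against 32.4% and 8.84% of all last exons tested).

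SRSF1 knockdown changed a small number of long last exons in both fractions. In the cytoplasm 23 of 857 fell and 0 rose (2.68%), against 1.24% of all last exons called (0.906% lower and 0.329% higher), and 213 reached an unadjusted p below 0.05. The median change was −0.27, against −0.10 over all, and centring left 10 calls, 9 lower and 1 higher. In the whole cell 22 of 1025 were called (2.15%), 16 lower and 6 higher, against 1.34% (0.556% lower and 0.783% higher). Aen, a nuclease gene in the p53 response (chr7:78907144-78911209, mm10, plus strand), fell in both fractions. Its distal share went from 16% and 15.2% to 7.22% and 8.97% in the whole cell (−1.07 ± 0.15, adjusted p = 0.000479). In the cytoplasm it went from 11.1% and 11.6% to 3.61% and 5.38% (−1.47 ± 0.20, adjusted p = 0.00404), below every other cytoplasmic library. Against GFP, Aen changed by +0.65 in SRSF7 knockdown in the whole cell (adjusted p = 0.041) and by +0.01 in SRSF3 knockdown (adjusted p = 0.99).

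Helz fell with SRSF1 knockdown too, from 72.4% and 72.9% to 54.9% and 47.7% in the cytoplasm (−1.33 ± 0.20, adjusted p = 0.00431). Znrf3, a ubiquitin ligase gene of the Wnt pathway, went from 53.5% and 56.1% to 29.3% and 38.6% (−1.24 ± 0.21, adjusted p = 0.00964). For both genes all 12 cytoplasmic libraries of the knockdowns other than SRSF3 lay below both GFP libraries. Those 12, SRSF1 included, reached at most 71.9% for Helz (median 65.7%) and 49.5% for Znrf3 (median 44.0%). The shared model of Eme2 and Mapk8ip3 fell in both fractions (−1.69 in the whole cell and −1.42 in the cytoplasm). Zeb2, a transcriptional repressor gene, and 5031439G07Rik, both in shared models, fell in the whole cell by 1.25 and 1.09. Whole-cell increases were seen in Hnrnph2, an hnRNP gene (+0.97, from 89.5% and 92.0% to 95.5% and 94.7%), and Tmem33, an endoplasmic reticulum membrane gene (+0.82). Mrps26, a mitochondrial ribosome gene, and Txndc9 rose by 0.70 and 0.55. Leaving out SRSF1 library A left 2 cytoplasmic and 5 whole-cell calls, leaving out GFP library A left 2 in the cytoplasm, and leaving out GFP library B left 8 and 11.

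SRSF2, SRSF4, SRSF5 and SRSF6 knockdown gave 1 call or none within long last exons. SRSF2 knockdown gave 1 call in the whole cell, Mettl16, an RNA methyltransferase gene, which rose from 63.4% and 59.8% to 71.1% and 68.8% (+0.54 ± 0.09, adjusted p = 0.0139), against 0.126% of all last exons (0.101% higher and 0.0253% lower). In the cytoplasm 0 of 857 were called in limma and 0 in edgeR, with 120 at an unadjusted p below 0.05, and 0 of all last exons were called. Leaving out SRSF2 library B gave 35 calls. SRSF4 and SRSF5 knockdown gave 0 calls in both fractions in limma and edgeR, over long and all last exons alike, with 46 and 34 whole-cell and 63 and 45 cytoplasmic values reaching an unadjusted p below 0.05. SRSF6 knockdown gave 0 in limma and edgeR, with 48 and 42 at that p, against 0.0505% of all last exons in the whole cell and 0 in the cytoplasm. The lowest p values belonged to AW554918 (−1.11, adjusted p = 0.999) for SRSF4 and Etl4 (+0.42, adjusted p = 1) for SRSF5 in the whole cell, and to Commd2 (+1.01, adjusted p = 0.309) for SRSF6. In the cytoplasm they belonged to Igf2bp1 (−0.50, adjusted p = 0.154) for SRSF2, Fyttd1 (−0.99, adjusted p = 0.343) for SRSF4, Dusp3 (−0.47, adjusted p = 0.955) for SRSF5 and Rbbp4 (+0.69, adjusted p = 0.369) for SRSF6. Median cytoplasmic changes were −0.13 (SRSF2), −0.14 (SRSF4), −0.13 (SRSF5) and 0.00 (SRSF6).

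The change in SRSF3 knockdown cytoplasm was greater in longer last exons. Of last exons under 1000 bases, 8 of 971 fell (median −0.02). In the class from 1000 to 1999 bases 69 of 1102 fell (median −0.12), and from 2000 to 2999 bases 114 of 712 fell (median −0.30). From 3000 to 4999 bases 148 of 634 fell (median −0.45), and at 5000 bases or more 89 of 223 fell (39.9%, median −0.82). Whole-cell shares called lower in the same classes were 1.14%, 4.99%, 9.32%, 12.9% and 19.8%. Around the boundary of 3000 bases the values were of the same order. In the 100 bases of length below it, 11 of 49 tested last exons were called in the cytoplasm (median −0.40), and in the 100 bases above it 5 of 45 (median −0.33). SRSF1 knockdown gave cytoplasmic medians from −0.02 in the shortest class to −0.39 in the longest, with 10 of 223 lower in the latter. With no call in any class, the medians went from −0.02 to −0.22 with SRSF2, from 0.03 to −0.29 with SRSF4 and from 0.00 to −0.24 with SRSF5 knockdown, and from 0.01 to −0.01 with SRSF6 knockdown. SRSF7 knockdown gave medians between 0.05 and 0.14.

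**Figure D5:**
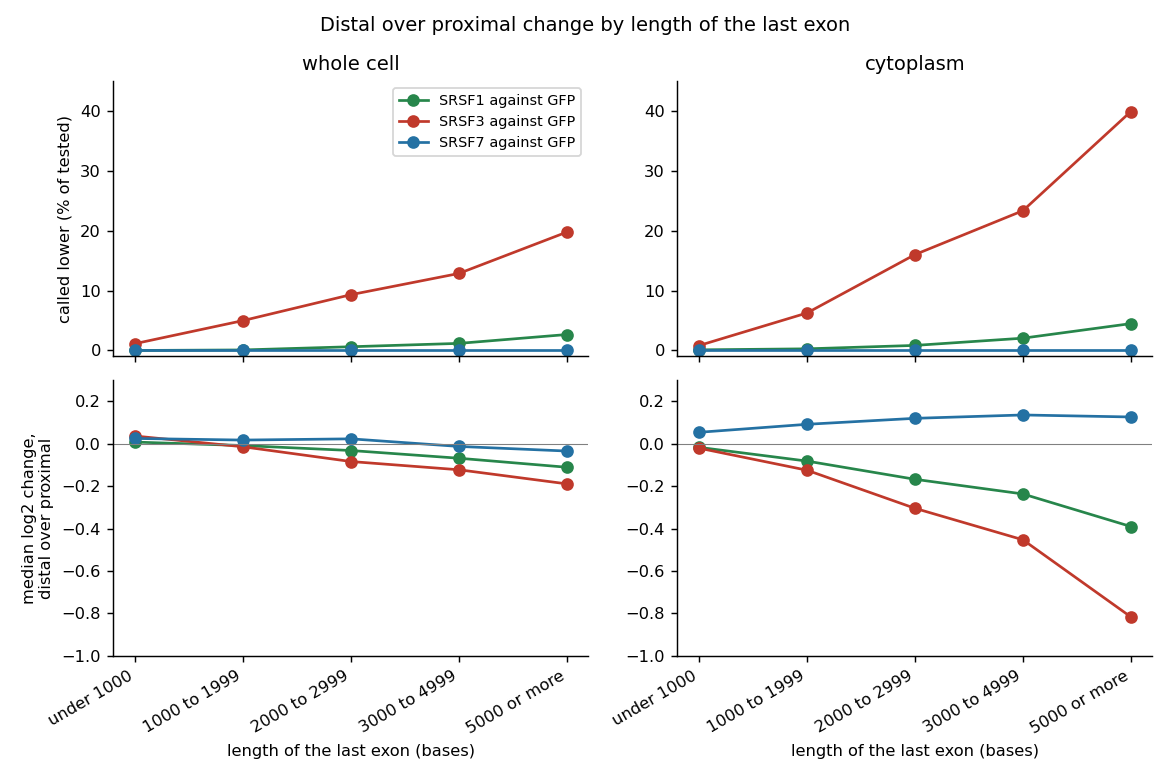
Percentage of tested last exons called lower in distal over proximal reads (upper panels) and median log2 change (lower panels) by length class of the last exon (x axis, bases), for SRSF1, SRSF3 and SRSF7 knockdown against GFP in each fraction. The SRSF3 line in the cytoplasm reaches 39.9% called lower and a median of −0.82 at 5000 bases or more.

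Use of the long last exon as a whole, against the upstream exons of its gene, also fell in SRSF3 knockdown. In the cytoplasm 571 of 1760 long last exons were called, 566 lower and 5 higher, against 11.7% of 10830 last exons (11.4% lower). The median change was −0.54, against −0.18 over all, and centring left 362 calls, 341 lower and 21 higher. Leaving out SRSF3 library A left 327, GFP library B 328 and GFP library A 359. The library medians were 0.21 and 0.19 with SRSF3 knockdown, 0.88 in each GFP library and 0.46 to 1.09 in the other knockdowns. In the whole cell 272 of 1960 were called, 261 lower and 11 higher, against 5.13%, and leaving out SRSF3 library A left 115 and GFP library B 146. In the class of 5000 bases or more, 180 of 423 fell in the cytoplasm. Of 819 tested by both measures in the cytoplasm, 229 fell in distal over proximal reads and 279 in last exon over upstream reads. Both measures were called lower in 161, the first alone in 68 and the second alone in 118. A missing call does not show that a measure was unchanged, and the measures share the distal reads.

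Pank3, a pantothenate kinase gene of coenzyme A synthesis, had the clearest such change. Its last exon is 1 bin of 5878 bases (chr11:35785408-35791285, mm10, plus strand), so it could be followed by this measure alone. In the cytoplasm the last exon held 89.9% and 87.9% of the gene's reads with GFP and 35.4% and 33.6% with SRSF3 knockdown, and 80.6% to 91.0% in the other knockdowns (−3.91 ± 0.16, adjusted p = 3.35e-09). Upstream reads numbered 44 and 47 with GFP and 2733 and 1558 with SRSF3 knockdown, while the last exon held 391 and 343, then 1495 and 788 reads. Both parts rose, the upstream exons more than the last. In the whole cell upstream reads were 1003 and 1071 with GFP and 4379 and 3239 with SRSF3 knockdown, and the change was −1.07 ± 0.11 (adjusted p = 3.1e-06).

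Rc3h2, which encodes the RNA-binding ubiquitin ligase Roquin-2, changed more in size but on fewer reads. The last exon (chr2:37370069-37375428, mm10, minus strand) held 85.0% and 88.0% of its cytoplasmic reads with GFP and 16.1% and 20.7% with SRSF3 knockdown (−4.79 ± 0.38, adjusted p = 2.83e-06). Upstream reads numbered 34 and 19 with GFP and 1112 and 555 with SRSF3 knockdown, whereas last-exon reads numbered 193 and 139, then 213 and 145. Nearly the whole difference was therefore in upstream reads. Hipk1, a nuclear kinase gene, went from 36.6% and 41.3% to 17.7% and 19.7% in the whole cell (−1.47 ± 0.10, adjusted p = 5.73e-08), and Gm608 from 88.3% and 91.8% to 72.2% and 68.4% (−1.95 ± 0.18, adjusted p = 1.6e-06).

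Pvrl3, the gene of the adhesion molecule nectin-3, and Tor1aip2, a torsin regulator gene in a shared model, rose instead. The Pvrl3 last exon went from 6.12% and 5.23% to 20.6% and 17.7% in the cytoplasm (+1.97 ± 0.27, adjusted p = 0.000274) and from 12.5% and 11.7% to 25.8% and 32.4% in the whole cell (+1.57 ± 0.14, adjusted p = 7.24e-07). Tor1aip2 changed by +1.87 ± 0.16 in the whole cell (adjusted p = 6.86e-07) and by +1.5 ± 0.41 in the cytoplasm (adjusted p = 0.0287), where SRSF3 library A stood at 25.1% and library B at 8.63%.

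SRSF1 knockdown lowered last exon over upstream reads in 74 of 1760 long last exons in the cytoplasm and raised it in 4, against 1.46% of all last exons called. Centring left 26 calls, 21 lower and 5 higher, leaving out SRSF1 library A left 4, GFP library A 3 and GFP library B 7. In the whole cell 10 fell and 10 rose of 1960, against 0.56%, and leaving out GFP library A gave 101, GFP library B 7 and SRSF1 library A 2. Nfasc, the neurofascin adhesion gene, fell from 32.9% and 31.4% to 9.31% and 14.1% in the cytoplasm (−1.87 ± 0.18, adjusted p = 0.000186) and by 1.10 in the whole cell. Intu fell by 1.42 in the cytoplasm. Gpr173, an orphan receptor gene, rose in both fractions (+1.03 and +1.86), Zfp655 rose in the cytoplasm (+1.33), and the shared model of Trim60 and Trim61 rose in the whole cell (+2.36, from 2.04% and 2.45% to 11.4% and 9.77%).

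For SRSF2 knockdown, 6 of 1760 fell in the cytoplasm (0.102% of all last exons called), led by Grik3 (−1.38) and Wdr26 (−1.11), and in the whole cell 4 rose and 2 fell (0.123%). Nin (+1.15), Bcl7c (+1.01) and Fat3 (−1.20) were among those in the whole cell. SRSF7 knockdown raised 6 and lowered 4 in the whole cell (0.228%), among them Gmps (+0.82), Rgs17 (+0.75), 9030425E11Rik (−1.0) and Fat3 (−0.99), and after centring 11 rose and 4 fell. In the cytoplasm SRSF7 knockdown gave 0 calls in limma, with 193 at an unadjusted p below 0.05, and the lowest p belonged to Dicer1, the microRNA-processing nuclease gene (+0.82, adjusted p = 0.191). SRSF4, SRSF5 and SRSF6 knockdown gave 0 calls in limma in both fractions, over all last exons too, with 114, 66 and 119 in the whole cell and 147, 168 and 114 in the cytoplasm at that p. The values of lowest p were −0.44 for Tor1aip1 (SRSF4), −0.45 for Pou6f1 (SRSF5) and +0.52 for Vps37a (SRSF6) in the whole cell, and −0.98 for Avl9 (SRSF4), −0.84 for Dcp2 (SRSF5) and +1.04 for Gna13 (SRSF6) in the cytoplasm.

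Regulatory genes with long last exons were followed in 8 lists of 180 genes, of which 57 had a long last exon. The lists were chosen with earlier results of these data known, so their counts are a description and not a test. In SRSF3 knockdown 12 of the 32 tested in the cytoplasm fell in distal over proximal reads, as did 15 of 37 tested in the whole cell, and 0 rose in either fraction. In the other 6 knockdowns 0 were called against GFP in limma and in edgeR, with at most 8 of 32 cytoplasmic and 4 of 37 whole-cell values reaching an unadjusted p below 0.05. By last exon over upstream reads, 29 of 57 fell in cytoplasmic and 19 of 57 in whole-cell RNA with SRSF3 knockdown, 4 and 1 with SRSF1 knockdown, and 2 and 1 with SRSF2 knockdown. The counts stand beside backgrounds of 12.2% and 8.64% for the first measure and 11.7% and 5.13% for the second in SRSF3 knockdown over last exons of every length. Among the long last exons alone the SRSF3 shares called were 28.2% and 16.2% for the first measure and 32.4% and 13.9% for the second. Backgrounds of the second measure over last exons of every length were 1.46% and 0.56% with SRSF1 and 0.102% and 0.123% with SRSF2 knockdown. Among the long ones they were 4.43% and 1.02% with SRSF1 and 0.341% and 0.306% with SRSF2 knockdown.

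RNA-binding regulators of 3′ untranslated regions had 3 of 4 tested lower in the cytoplasm (list median −1.43) and 3 of 7 in the whole cell. Igf2bp1, an mRNA-binding protein gene of early development in a shared model (chr11:95957163-95963592, mm10, minus strand), was among the most deeply read. Its proximal bins held 926 and 1059 reads with GFP and 2618 and 3657 with SRSF3 knockdown in the cytoplasm, while its distal bin held 8156 and 8525, then 5938 and 8240. The distal share went from 89.8% and 89.0% to 69.4% and 69.3%, with 85.3% to 90.5% in the other knockdowns (−1.90 ± 0.09, adjusted p = 7.08e-09), and the whole-cell change was −1.10 ± 0.13 (adjusted p = 3.02e-05). Celf1 and Msi2, which encode regulators of splicing and translation, changed by −1.02 and −1.83 in the cytoplasm (adjusted p = 0.000164 and 0.0104), and Msi2 (−0.38) and Cpeb2 (−1.12) fell in the whole cell, Cpeb2 not after centring (−1.07, adjusted p = 0.0624).

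Small GTPases had 3 of 4 tested lower in each fraction. Nras (chr3:103064234-103067914, mm10, plus strand) went from 55.9% and 56.8% to 31.7% and 26.5% in the cytoplasm (−1.66 ± 0.11, adjusted p = 3.14e-07), with 50.2% to 60.2% in the other knockdowns. Rab14, which acts in endosomal traffic, went from 56.5% and 57.8% to 36.8% and 35.7% (−1.23 ± 0.10, adjusted p = 1.25e-06). For both genes the SRSF3 libraries lay below all other cytoplasmic libraries. Rab22a fell by 0.77 in the whole cell, which did not pass after centring (−0.71, adjusted p = 0.0613).

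Kinases and signalling genes had 3 of 10 tested lower in the cytoplasm, and 7 of 11 were lower in whole-cell RNA. Gsk3b went from 89.5% and 86.5% to 64.9% and 67.9% in the cytoplasm (−1.88 ± 0.21, adjusted p = 4.52e-05) and changed by −0.91 in the whole cell. The Wnt co-receptor gene Lrp6 went from 83.2% and 80.7% to 62.6% and 48.1% (−1.85 ± 0.28, adjusted p = 0.00053). Rps6kb1, the gene of S6 kinase, went from 30% and 27.2% to 16.8% and 13.7% (−1.15 ± 0.23, adjusted p = 0.00357). Mapk9, Mapk8 and Acvr2a fell in the whole cell by 0.54, 0.56 and 0.65, Mapk8 not after centring (−0.51, adjusted p = 0.0595).

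Of the other lists, microRNA silencing had Tnrc6b, the gene of an Argonaute partner in a shared model, as its only last exon tested for the distal share, which went from 35.9% and 38.9% to 18.9% and 16.4% in the cytoplasm (−1.46 ± 0.31, adjusted p = 0.00555). The 12 libraries of the other knockdowns held 18.7% to 33.2%, all below both GFP libraries and the lowest within the range of the SRSF3 libraries. Ubiquitin ligases had 1 of 2 lower in each fraction. Polycomb and chromatin genes had 1 of 9 lower in the cytoplasm (Tet1, −1.47) and 1 of 10 in the whole cell (Dnmt3a, −0.95). After centring these were −1.23 (adjusted p = 0.0647) and −0.89 (adjusted p = 0.0545), and neither passed. The cleavage factor gene Cpsf6 (−0.32 in the cytoplasm) and the cytokine receptor gene Lifr (−0.81) were the only tested ones in the lists of polyadenylation and pluripotency factors, and neither passed in either fraction.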

How the data were processed

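P19 cells were transfected with esiRNAs against SRSF1 to SRSF7 or GFP, and poly(A)+ RNA of the whole cell and the cytoplasm was sequenced after TruSeq preparation. Per the submitters' processing notes, TopHat2 (2.0.9, 2.0.10), Bowtie2 (2.1.0), Cufflinks (2.1.1), cutadapt and CASAVA (1.8.2) were used, along with builds mm10 and mm9, with no role or order given. The authors counted reads per exon bin for DEXSeq, and the signal they deposited is that count divided by 1 size factor per library (bin positions in mm10). Multiplying back gave whole reads within 0.01 for all values, and these reads were used. A read that overlaps several bins is counted in each. The authors' own fold changes, p-values, adjusted p-values and dispersions, and their gene, FPKM and isoform tables, were not used.

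The ratios (distal bins over proximal bins, last exon over upstream exons) took a pseudocount of 1 read. Each part needed a mean of at least 10 reads over the 16 libraries of a fraction. Distal over proximal also needed at least 100 bases per part. Both ratios were tested in limma 3.58.1 (R 4.3.3) with all 16 libraries of a fraction in 1 fit, a trend on depth and Benjamini-Hochberg adjustment over last exons of every length, called at 0.05. The difference between fractions was fitted over 32 libraries. For each comparison the text names the 4 largest called changes each way in the first measure and the 2 largest in the second, where both knockdown libraries lay outside the control range and each part averaged 50 reads or more, then the called members of 8 gene lists, and with no call the lowest p values. Members and lists were chosen with earlier results of these data known. Alternatives were centring on the library median, edgeR 4.0.16 (distal against proximal only), the first against the last bin, other read minimums, a pseudocount of 5, only the 4 libraries compared, a replicate block and leaving out each library. On simulated data for SRSF3 in the cytoplasm (3642 last exons of every length), 61% of 2-fold and 98% of 4-fold changes were found. In the same simulation 11 unchanged last exons were called.

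The genome provided (mm9) differs from the files' build, so sequences are given by mm9 position and only for last exons of equal length in both annotations. A few named results are not reported here.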

Additional observations from a re-analysis of the deposited data

Results flagged for a closer look

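The response to SRSF3 knockdown differed between the fractions by a test of the difference itself. In the interaction fit of limma over all 32 libraries, 50 of 852 long last exons changed more negatively in the cytoplasm than in the whole cell, and their differences had a median of −1.33. The 2 GFP whole-cell libraries differed in their medians (0.20 and 0.42), and leaving out GFP whole-cell library A left 7 of these calls.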

How the results depend on the processing

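Of the counts of called long last exons recomputed under an alternative, 319 stayed within 1.5 times the reported count and 83 did not. Distal over proximal reads are meant first in each sentence, and the cause of each move was not tested. After centring, the cytoplasmic counts were 140 for SRSF3, 210 for SRSF3 minus SRSF7, 10 for SRSF1 and 0 for SRSF7, with 15 for the SRSF3 difference between fractions, and for last exon over upstream 362 (SRSF3) and 26 (SRSF1). The median of all last exons shifts by −0.17 in SRSF3 cytoplasm, which centring removes. Between first and last bins, SRSF3 minus SRSF7 gave 245 calls (cytoplasm) and 147 (whole cell), and the count was 0 for SRSF7 in the cytoplasm. Ccdc127 turned to −0.55 (SRSF3 against GFP, cytoplasm) and −0.019 (SRSF3 minus SRSF7, cytoplasm). With only the 4 libraries compared, counts were 0 for SRSF2 in the whole cell, 2 for SRSF6 and 6 for SRSF7 in the cytoplasm, and for last exon over upstream 13 (SRSF1) and 150 (SRSF3) in the whole cell and 50 (SRSF1) and 0 (SRSF2) in the cytoplasm. SRSF7 in the cytoplasm gave 2 in edgeR and 2 with a mean of 50 reads or more.

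The letters A and B pair no samples in the labels. Differences between A and B correlated between groups with a median Spearman rho of 0.157 in the whole cell (0.006 to 0.286) and 0.313 in the cytoplasm (−0.020 to 0.490). With a replicate block, whole-cell counts were 48 (SRSF1), 5 (SRSF2), 1 (SRSF5), 1 (SRSF6) and 21 (SRSF7), and cytoplasmic counts 70 (SRSF1), 7 (SRSF2) and 5 (SRSF7). For last exon over upstream the replicate block gave 38 (SRSF1), 15 (SRSF2) and 21 (SRSF7) in the whole cell and 202 (SRSF1), 16 (SRSF2) and 1 (SRSF7) in the cytoplasm, and for the SRSF3 difference between fractions 102. All 77 calls of named last exons passed with the block.

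Leaving out 1 library gave 5 to 25 (SRSF1), 0 to 1 (SRSF2), 66 to 180 (SRSF3), 0 to 1 (SRSF6), 0 to 10 (SRSF7) and 112 to 220 (SRSF3 minus SRSF7) calls in the whole cell. In the cytoplasm it gave 2 to 30 (SRSF1), 0 to 35 (SRSF2), 118 to 165 (SRSF3), 0 to 1 (SRSF7) and 202 to 272 (SRSF3 minus SRSF7). For last exon over upstream the ranges were 2 to 101 (SRSF1), 0 to 29 (SRSF2), 115 to 399 (SRSF3) and 0 to 11 (SRSF7) in the whole cell and 3 to 74 (SRSF1), 0 to 108 (SRSF2) and 327 to 384 (SRSF3) in the cytoplasm. Differences between fractions ranged over 7 to 53 (SRSF3), 0 to 4 (SRSF2) and 0 to 1 (SRSF4). The counts of 35 and 108 for SRSF2 came without SRSF2 cytoplasmic library B, those of 101 (SRSF1) and 29 (SRSF2) without GFP whole-cell library A, and the 118 and 327 for SRSF3 without GFP library B and SRSF3 library A. Of 77 named calls, 70 passed after centring, and those that did not included Hnrnpa3 (SRSF7, cytoplasm) and, for SRSF3, Tet1, Cpeb2, Rab22a, Dnmt3a and Mapk8. Over the leave-one-out fits of the named calls, 221 of 308 passed, and each group then has 1 library assumed to vary like the rest. With 2 libraries a group, a change of 2-fold is often missed, and last exons of 1 bin give no value for the shift inside them.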
